A study of Mus musculus with 8 samples.

Results

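The genotype by KCl interaction is the change that depolarisation with KCl brought in Rem2 KO cortical neurons minus the change it brought in Control neurons. It was computed for each gene on log2(FPKM + 1), within each replicate number, as (Rem2 KO with KCl minus Rem2 KO) minus (Control with KCl minus Control), where FPKM is the count of fragments scaled to transcript length and to the number of mapped fragments. All 8 RNA-seq libraries of the series enter it, 2 in each of 4 groups: Rem2 KO with KCl, Rem2 KO, Control with KCl and Control. A positive interaction means a larger rise or a smaller fall with KCl in Rem2 KO than in Control. Of 23946 genes with a summed FPKM, 12736 were above 0 in all 8 libraries and at 1 FPKM or more in at least 2, and these were tested.

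The neurons came from mouse cortex at embryonic day 16.5 and were grown for 6 days in vitro. All 4 groups were silenced overnight with 1 µM tetrodotoxin, a sodium channel blocker, from day 5. The KCl groups then received 55 mM KCl for 4 h, and the other 2 groups stayed silenced. The genotype label of every library, Control included, reads Rem2 flx/flx, a floxed allele that Cre recombinase can delete. The way Cre was supplied and the exons it removes are not given in the sources used here. The title of the series asks after Rem2, synapse formation and the expression of genes for synaptogenic molecules. Replicates are labelled as biological replicates, with no animal or culture named, so p-values measure the spread between these samples.

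High KCl depolarises the neuronal membrane and opens voltage-gated calcium channels. Calcium entry acts through kinases and through transcription factors such as CREB, SRF and MEF2. They first induce immediate-early genes, many of which encode transcription factors themselves, and later a set of effectors that includes secreted peptides, growth factors and synaptic proteins. Rem2 belongs to the RGK family of small GTPases, whose members inhibit high-voltage-activated calcium channels, and Rem2 is itself induced by neuronal activity.

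The files hold no read counts, so the depth of each library is unknown. Between 16014 and 17413 genes were above 0 per library, and between 11998 and 12770 reached 1 FPKM. Same-numbered libraries stood apart from the other number: the summed FPKM of 13 meningeal fibroblast markers was 264 to 312 in the 4 libraries numbered 2 and 106 to 127 in those numbered 1. Most of each sum came from Igfbp2, at 206 to 247 FPKM in the libraries numbered 2 and 65.8 to 92.8 in those numbered 1. The sums therefore follow that gene more than the whole list. The replicate number was a term of the main fit, because same-numbered libraries deviated together from their group means. Most markers of neurons and of neural glia and progenitors were at 1 FPKM or more in all 8 libraries. They were 18 of 19 excitatory cortical neuron markers, 19 of 20 interneuron markers and 18 of 19 markers of astrocytes and radial glia. For proliferation and progenitors they were 20 of 22, and for the oligodendrocyte lineage 10 of 13. This also held for 10 of 14 endothelial and mural, 7 of 15 microglial and 4 of 13 fibroblast markers. Summed FPKM was 632 to 1135 for the excitatory list and 1928 to 3137 for astrocytes and radial glia. In such bulk samples fewer cells of a type and less RNA per cell cannot be told apart.

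Rem2, the targeted gene, had lower values in Rem2 KO than in Control and rose with KCl in both. Its FPKM was 11.7 and 12.4 in Rem2 KO with KCl, 2.13 and 1.70 in Rem2 KO, 22.5 and 21.4 in Control with KCl, and 6.29 and 2.54 in Control. The lower level in Rem2 KO held with KCl and in silenced cells and in both replicates, and no library was at 0. Rem2 KO minus Control was -0.82 with KCl and -0.80 in silenced cells, and neither passed the test (limma adjusted p 0.252 and 0.355). KCl raised it by 2.16 log2 units in Rem2 KO and by 2.18 in Control (limma adjusted p 5.84e-05 and 5.34e-05). The interaction was 0.33 in replicate 1 and -0.36 in replicate 2, and the fit gave -0.02 with a 95% interval of -0.71 to 0.68. Its sign depended on single libraries: it was -0.50 without the silenced Control library of replicate 1 and 0.47 without that of replicate 2. The related GTPases Gem and Rrad gave 0.21 and 0.05, each with opposite signs in the replicates.

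KCl changed the transcriptome of both genotypes widely, and no gene passed the test for a response that differed between them. With limma, 0 of 12736 genes (0%) had an interaction past a Benjamini-Hochberg adjusted p of 0.05, and the smallest adjusted p was 0.999. At an unadjusted p under 0.05 there were 471 genes (3.70%), of which 310 were positive (2.43%) and 161 negative (1.26%). With no interaction in any gene, a share of 0.05 would be expected under that p, which is more than was found. Genes named below for a small unadjusted p are therefore descriptions and not detected differences. In the same fit the KCl response averaged over the genotypes passed for 8368 genes (65.7%), 2696 of them higher with KCl (21.2%) and 5672 lower (44.5%). Under a trimmed-mean (TMM-type) rescaling of the libraries, which moved the median response of all genes from -0.13 to 0.02, 4336 were higher and 4060 lower. Quantile normalisation gave 3840 higher and 4388 lower, and upper quartile scaling 3579 and 4702. The median interaction of all genes moved too, from 0.034 to -0.0038 under TMM-type scaling. It was 0.0074 under upper quartile scaling and -4.25e-05 under quantile normalisation. The majority of positive interactions over all genes thus depended on the scaling. Without the replicate block 4469 genes passed for KCl, and the interaction still passed for 0 genes, with 42 at an unadjusted p under 0.05.

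**Figure D1:**
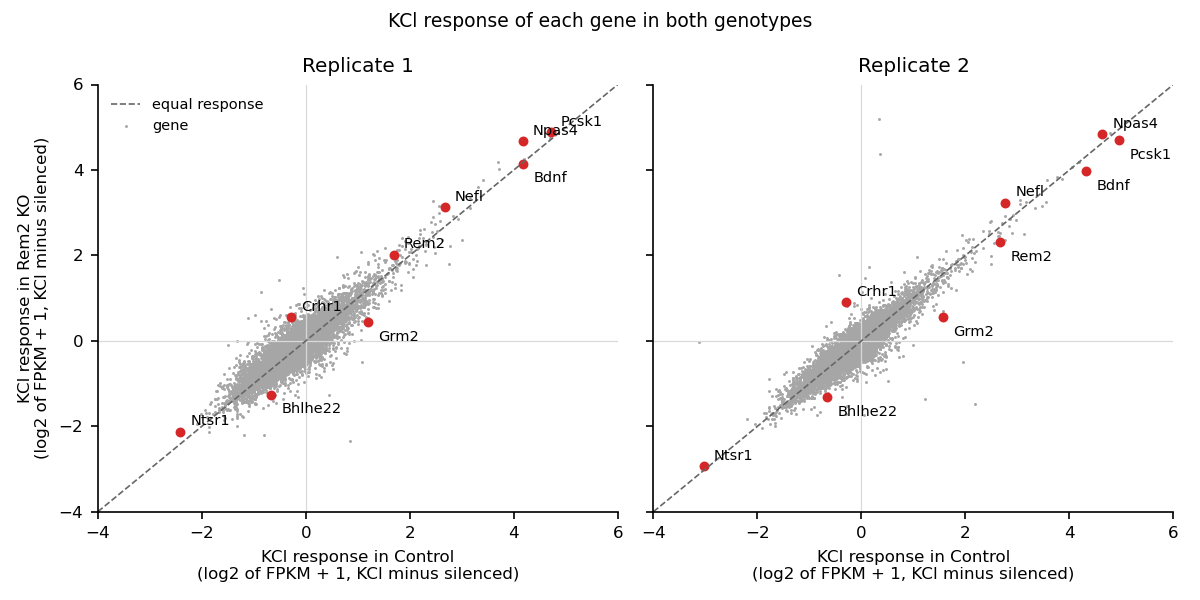
KCl response of each tested gene in Rem2 KO neurons plotted against that in Control neurons, in log2(FPKM + 1), one panel per replicate number; the diagonal marks equal responses. The points lie along the diagonal, with a Pearson correlation across genes of 0.885 in replicate 1 and 0.918 in replicate 2.

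The responses of the genotypes ran in parallel in each replicate. Across genes, the KCl response in Rem2 KO correlated with that in Control at r = 0.885 in replicate 1 and 0.918 in replicate 2. The standard deviation of the response over genes was 0.544 and 0.532 in Rem2 KO, against 0.534 and 0.524 in Control. The interaction itself had a standard deviation of 0.258 in replicate 1 and 0.214 in replicate 2. Its values in the replicates did not go together: over the 12736 genes Pearson's r was -0.0464 and Spearman's rho 0.00860. Genes share libraries and are not independent, so these coefficients are descriptions.

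**Figure D2:**
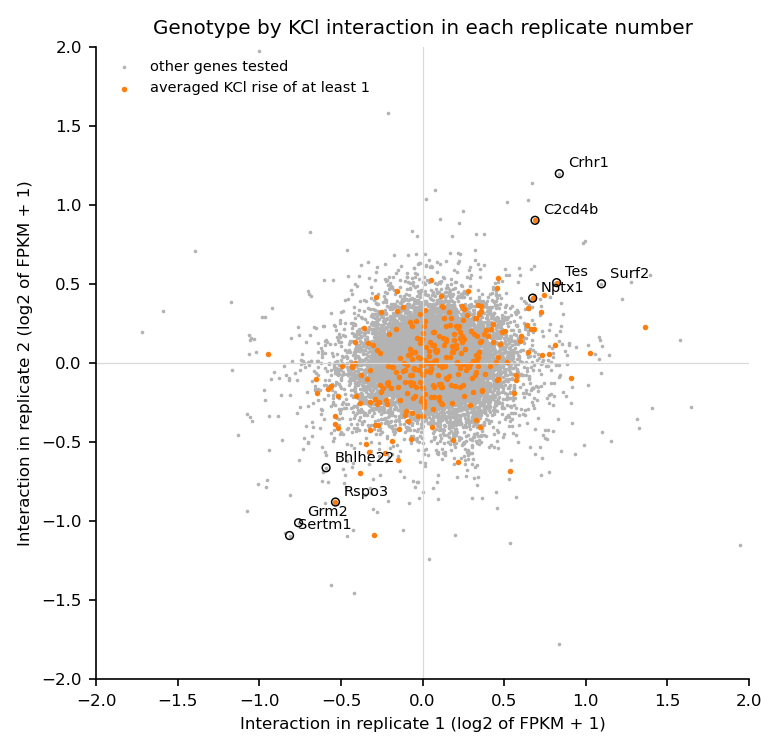
Genotype by KCl interaction of each tested gene in replicate 2 against replicate 1, in log2(FPKM + 1), with some genes labelled and the genes with an averaged KCl rise of at least 1 in orange; 9 genes lie outside the plotted range. The cloud has little slope (Pearson's r -0.0464). The labelled genes lie in the quadrants where both replicates have the same sign, which the rule for naming most of them required.

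The intervals of the fit describe its precision gene by gene, without adjustment for the number of genes tested. The median standard error of an interaction was 0.14, and the median 95% interval reached 0.32 to either side of the estimate. For 12579 genes (98.8%) the interval lay wholly within 1 log2 unit of no difference. The interaction had the same sign in both replicates for 4073 genes on the positive side (32.0%) and 2390 on the negative side (18.8%). It reached 0.5 in both replicates for 21 genes on the positive side (0.165%) and 25 on the negative side (0.196%).

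The counts of genes called within each genotype were set beside the test of the difference. KCl passed for 6631 genes in Rem2 KO (52.1%) and 6731 in Control (52.9%), and 5639 genes passed in both. A further 992 passed in Rem2 KO alone and 1092 in Control alone, but in none of these sets did a gene pass the interaction test. Among the 992, the median size of the response was 0.34 in Rem2 KO and 0.18 in Control; among the 1092 it was 0.18 in Rem2 KO and 0.34 in Control. An unadjusted interaction p under 0.05 was found for 129 of the 992 (13.0%), 116 of the 1092 (10.6%) and 173 of the 5639 (3.07%). The first 2 sets were chosen on the same responses, so their shares are a description.

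The size of the KCl response was also compared over whole sets of genes. Genes that changed by at least 1 log2 unit in one replicate number, in the mean of both genotypes, were measured in the other. The 302 rising genes measured in replicate 1 averaged 1.50 in Rem2 KO and 1.45 in Control, a ratio of 1.03. The 316 rising genes measured in replicate 2 averaged 1.45 in Rem2 KO and 1.47 in Control, a ratio of 0.988. The rises were thus slightly larger in Rem2 KO in replicate 1 and slightly smaller in replicate 2. Under quantile normalisation or TMM-type scaling, and for responses of at least 2, they were slightly smaller in Rem2 KO in replicate 1 too. The falls were smaller in Rem2 KO in both replicates. In replicate 1 they averaged -1.13 in Rem2 KO and -1.17 in Control over 475 genes. In replicate 2 they averaged -1.09 in Rem2 KO and -1.14 in Control over 503 genes. The ratio of the falls in replicate 1, 0.963, turned to 1.04 under TMM-type scaling. With 2 replicate numbers no permutation test of these ratios can pass 0.05.

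Among genes that KCl raised the most, the interaction was more alike in the replicates than over all genes. For the 292 genes with an averaged rise of at least 1, chosen without use of the interaction, r between replicates was 0.397, and it ran from 0.372 to 0.430 under other settings chosen after seeing the data. Of these genes 33 (11.3%) had an unadjusted p under 0.05, against 3.70% of all genes, with 21 positive and 12 negative. For 278 of them (95.2%) the 95% interval lay within 1 log2 unit of no difference. The 472 genes with an averaged fall of at least 1 gave r = -0.0694, with 16 genes (3.39%) at an unadjusted p under 0.05, near the 3.70% of all genes.

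Immediate-early genes rose with KCl: averaged over the genotypes, 22 of 28 tested rose and 4 fell, against 21.2% and 44.5% of all genes. Fos, a subunit of the AP-1 transcription factor, had 175 and 179 FPKM in Rem2 KO with KCl and 6.18 and 8.87 in Rem2 KO, against 154 and 169 in Control with KCl and 7.61 and 8.33 in Control. Its interaction was 0.23, with an interval of -0.10 to 0.55. Npas4, a neuronal activity-dependent transcription factor, had 82.3 and 70.9 FPKM in Rem2 KO with KCl and 2.27 and 1.52 in Rem2 KO, against 75.0 and 61.9 in Control with KCl and 3.23 and 1.54 in Control. The interaction of Npas4 was 0.35, from -0.04 to 0.74. For both genes the KCl libraries of the genotypes lay close together and far above all silenced libraries.

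Egr3, a zinc-finger transcription factor, had the smallest p of the immediate-early list. It had 9.78 and 8.51 FPKM in Rem2 KO with KCl and 2.01 and 2.20 in Rem2 KO, against 8.57 and 7.85 in Control with KCl and 3.18 and 2.80 in Control. In each replicate the Rem2 KO library lay above that of Control with KCl and below it when silenced. The interaction was 0.64 in replicate 1 and 0.35 in replicate 2, with a fit of 0.50 (unadjusted p 0.00798 in limma, adjusted p 0.999). Of 28 immediate-early genes tested, 2 had an unadjusted p under 0.05, Egr3 and the nuclear receptor Nr4a1 (0.34). This was 7.14%, against 3.70% of all genes and 11.3% of the 292 genes with an averaged rise of at least 1. None of the 28 passed after adjustment. The list's median interaction was 0.16, made of 0.30 in replicate 1 and 0.02 in replicate 2, against 0.03 for all genes. In both replicates 17 of the 28 (60.7%) were positive and 4 negative, against 32.0% and 18.8% of all genes.

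**Figure D3:**
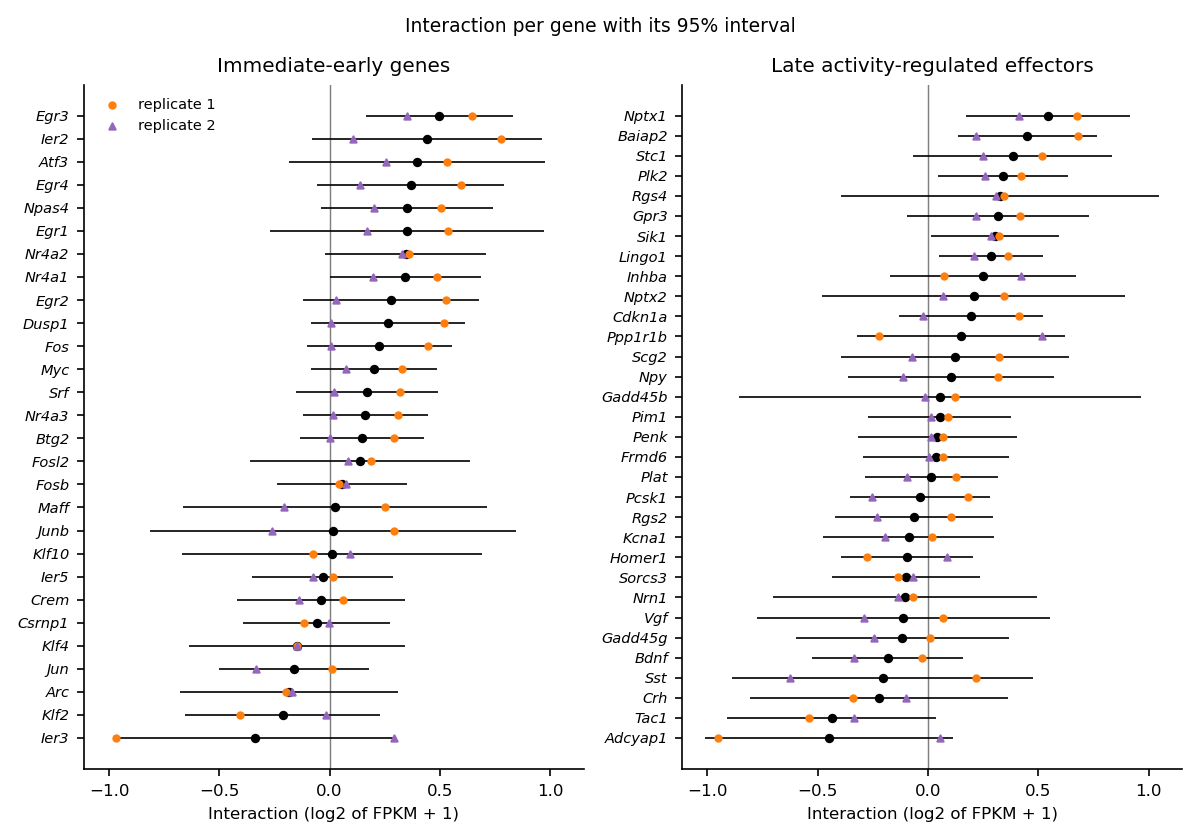
Interaction (log2(FPKM + 1), Rem2 KO response minus Control response) with its 95% interval from limma for the tested immediate-early genes and late effectors; black points are the fit, orange circles replicate 1 and purple triangles replicate 2. Fos (-0.10 to 0.55), Npas4 (-0.04 to 0.74) and Bdnf (-0.52 to 0.16) have intervals that span 0, and Egr3 (0.16 to 0.83) lies above it.

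Of 32 late effectors, 30 rose with KCl in the average of the genotypes and none fell, against 21.2% and 44.5% of all genes. Bdnf, a neurotrophin, had 27.0 and 23.3 FPKM in Rem2 KO with KCl and 0.585 and 0.540 in Rem2 KO, against 24.5 and 26.9 in Control with KCl and 0.417 and 0.404 in Control. Its interaction was -0.18 (95% interval -0.52 to 0.16). Pcsk1, a prohormone convertase that cleaves neuropeptide precursors, had 51.9 and 60.3 FPKM in Rem2 KO with KCl and 0.783 and 1.35 in Rem2 KO, against 52.7 and 67.1 in Control with KCl and 1.05 and 1.19 in Control. The interaction of Pcsk1 was -0.04 (-0.35 to 0.28). Scg2, a secretory granule protein, had 276 and 284 FPKM in Rem2 KO with KCl and 25.4 and 19.6 in Rem2 KO, against 231 and 288 in Control with KCl and 26.7 and 18.9 in Control. Its interaction was 0.12 (-0.40 to 0.64). In all 3 genes the ranges of the genotypes overlapped with KCl, while KCl and silenced libraries were far apart.

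Pcsk1 and Scg2 are shown with their promoters because, of the 10 genes with the largest rises, 9 had a RefSeq promoter sequence and these 2 held a full cAMP response element, the CREB recognition sequence TGACGTCA. The windows are the 250 bases before the RefSeq start site on GRCm38.p6, written in the direction of transcription, with the element in capitals. Pcsk1 lies at chr13:75089607-75089856 on the plus strand and Scg2 at chr1:79440027-79440276 on the minus strand.
Pcsk1: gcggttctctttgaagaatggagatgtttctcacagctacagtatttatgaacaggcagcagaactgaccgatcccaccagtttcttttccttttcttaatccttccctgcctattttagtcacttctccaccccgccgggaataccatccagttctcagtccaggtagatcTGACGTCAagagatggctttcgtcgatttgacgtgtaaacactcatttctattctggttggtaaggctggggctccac
Scg2: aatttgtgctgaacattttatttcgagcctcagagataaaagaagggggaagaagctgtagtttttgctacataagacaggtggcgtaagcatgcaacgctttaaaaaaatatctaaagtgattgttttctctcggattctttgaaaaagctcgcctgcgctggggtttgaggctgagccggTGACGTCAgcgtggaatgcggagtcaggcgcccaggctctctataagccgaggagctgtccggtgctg

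The element begins 78 bases before the start site in Pcsk1 and 68 bases before it in Scg2. It was present in 3.18% of the 10148 tested genes with a promoter sequence, in 9.29% of those raised by at least 1 (21 of 226) and in 0.813% of those lowered by at least 1 (3 of 369). TGACGTCA reads the same on both strands. The AP-1 sequence TGANTCA, searched on both strands and unable to overlap the element, was in 4.92% of all these genes, 7.08% of the raised and 4.34% of the lowered. The interaction of raised genes had a median of 0.03 with the CREB element and 0.06 without it. A match is a description of letters and not a bound site.

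Nptx1, a neuronal pentraxin that gathers AMPA receptors at synapses, had the smallest p of the late list. It had 8.66 and 5.80 FPKM in Rem2 KO with KCl and 2.20 and 1.82 in Rem2 KO, against 5.69 and 3.62 in Control with KCl and 2.54 and 1.54 in Control. Its interaction was 0.68 in replicate 1 and 0.41 in replicate 2 (fit 0.54, unadjusted p 0.00898). The Rem2 KO libraries with KCl exceeded both Control libraries with KCl. Of 32 late effectors tested, 5 (15.6%) had an unadjusted p under 0.05. This share was 3.70% over all genes and 11.3% over the 292 genes with an averaged rise of at least 1. All 5 were positive, as were 2.43% of all genes. They were Nptx1, the actin regulator Baiap2 (0.45), Plk2, a kinase of synaptic downscaling (0.34), the salt-inducible kinase Sik1 (0.30) and the Nogo receptor partner Lingo1 (0.29). None passed after adjustment, and the list's median was 0.05, near the 0.03 of all genes. Homer1, Vgf and Sst gave -0.10, -0.11 and -0.20.

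The smallest p of all belonged to Crhr1, the receptor of corticotropin-releasing hormone (chromosome 11, 104130463 to 104175523 on mm10). It had 8.09 and 5.82 FPKM in Rem2 KO with KCl and 5.22 and 2.66 in Rem2 KO, against 5.35 and 2.73 in Control with KCl and 6.77 and 3.60 in Control. KCl libraries were higher than silenced ones in Rem2 KO and lower in Control, in both replicates. The interaction was 0.84 and 1.20, with a fit of 1.02 (SE 0.16, 95% interval 0.65 to 1.39, unadjusted p 0.000141, adjusted p 0.999). KCl raised Crhr1 in Rem2 KO by 0.72 (adjusted p 0.000769), and in Control the response was -0.30 (adjusted p 0.0573). Among the alternatives run, the interaction of Crhr1 passed only with limma on the 2 within-replicate values alone (adjusted p 0.0403). That fit has 1 residual degree of freedom.

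Only 3 genes responded in opposite directions in all 4 within-replicate responses by at least 0.25: Crhr1, the membrane protein gene Sertm1 and the histone gene H4c14. Sertm1 went the other way from Crhr1. It had 20.0 and 30.3 FPKM in Rem2 KO with KCl and 25.3 and 49.1 in Rem2 KO, against 20.0 and 43.7 in Control with KCl and 13.9 and 32.5 in Control. The interaction was -0.95 (limma adjusted p 0.999). Sertm1 too passed only with limma on the 2 within-replicate values alone (adjusted p 0.0403). H4c14 (-0.82, unadjusted p 0.0250 in limma) has near-identical histone copies between which reads may be split. It was low, with 2.69 and 0.140 FPKM in Rem2 KO with KCl and 3.71 and 0.568 in Rem2 KO. Control had 1.71 and 0.474 FPKM with KCl and 0.967 and 0.139 when silenced. Without a minimum size, 345 genes (2.71%) were opposite in all 4.

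Nefl and Tes were among the positive interactions of small p, and neither passed after adjustment. Nefl, the light neurofilament subunit, had 119 and 127 FPKM in Rem2 KO with KCl and 12.7 and 12.6 in Rem2 KO, against 108 and 118 in Control with KCl and 16.1 and 16.6 in Control. KCl raised it in both genotypes, and its replicates were nearly equal, at 0.45 and 0.48 (fit 0.47, unadjusted p 0.00155). Tes, a focal adhesion protein, had 51.0 and 45.1 FPKM in Rem2 KO with KCl and 17.0 and 13.9 in Rem2 KO, against 37.8 and 39.6 in Control with KCl and 22.7 and 17.6 in Control. Its interaction was 0.67. For both genes the Rem2 KO libraries lay above Control with KCl and below Control when silenced.

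Rtn4r, the Nogo receptor that limits axon growth, fell with KCl by 0.99 in Rem2 KO and by 1.59 in Control. It had 11.0 and 8.42 FPKM in Rem2 KO with KCl and 19.8 and 20.5 in Rem2 KO, against 7.33 and 6.95 in Control with KCl and 23.7 and 23.2 in Control. The interaction was 0.60 (unadjusted p 0.00279). Cacna1g, a T-type calcium channel subunit, had 13.8 and 13.3 FPKM in Rem2 KO with KCl and 8.15 and 8.02 in Rem2 KO, against 13.3 and 13.4 in Control with KCl and 11.2 and 11.3 in Control. Here the genotypes were level with KCl, and the difference of 0.45 (unadjusted p 0.00340) lay in the silenced libraries. Further genes named on this side were Tmem53 (0.98), Hes7 (0.90), C2cd4b (0.80), Slc1a5 (0.65), Cplane2 (0.63), Smim17 (0.60), Tmem151a (0.51) and Rusc1 (0.42). Some were low: Cplane2 ran from 0.826 to 2.21 FPKM over the libraries and Hes7 from 0.885 to 3.43. The replicates gave 1.40 and 0.56 for Tmem53 and 1.28 and 0.51 for Hes7. Smim17 had an unadjusted p of 0.0221 in limma.

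Surf2 also had a small p and needs its neighbour beside it. It had 39.8 and 40.2 FPKM in Rem2 KO with KCl and 25.7 and 27.7 in Rem2 KO, against 20.9 and 27.7 in Control with KCl and 29.7 and 27.4 in Control. The overlapping gene Surf1 was listed at 0 in both Rem2 KO libraries with KCl and had 20.5 and 35.2 in Rem2 KO, 33.9 and 21.3 in Control with KCl, and 30.2 and 21.5 in Control. Surf2 was thus high in the 2 libraries where Surf1 was listed at 0. Whether the counting used strand is not given in the sources used here, and the part of Surf1's reads in the interaction of 0.80 for Surf2 was not tested.

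**Figure D4:**
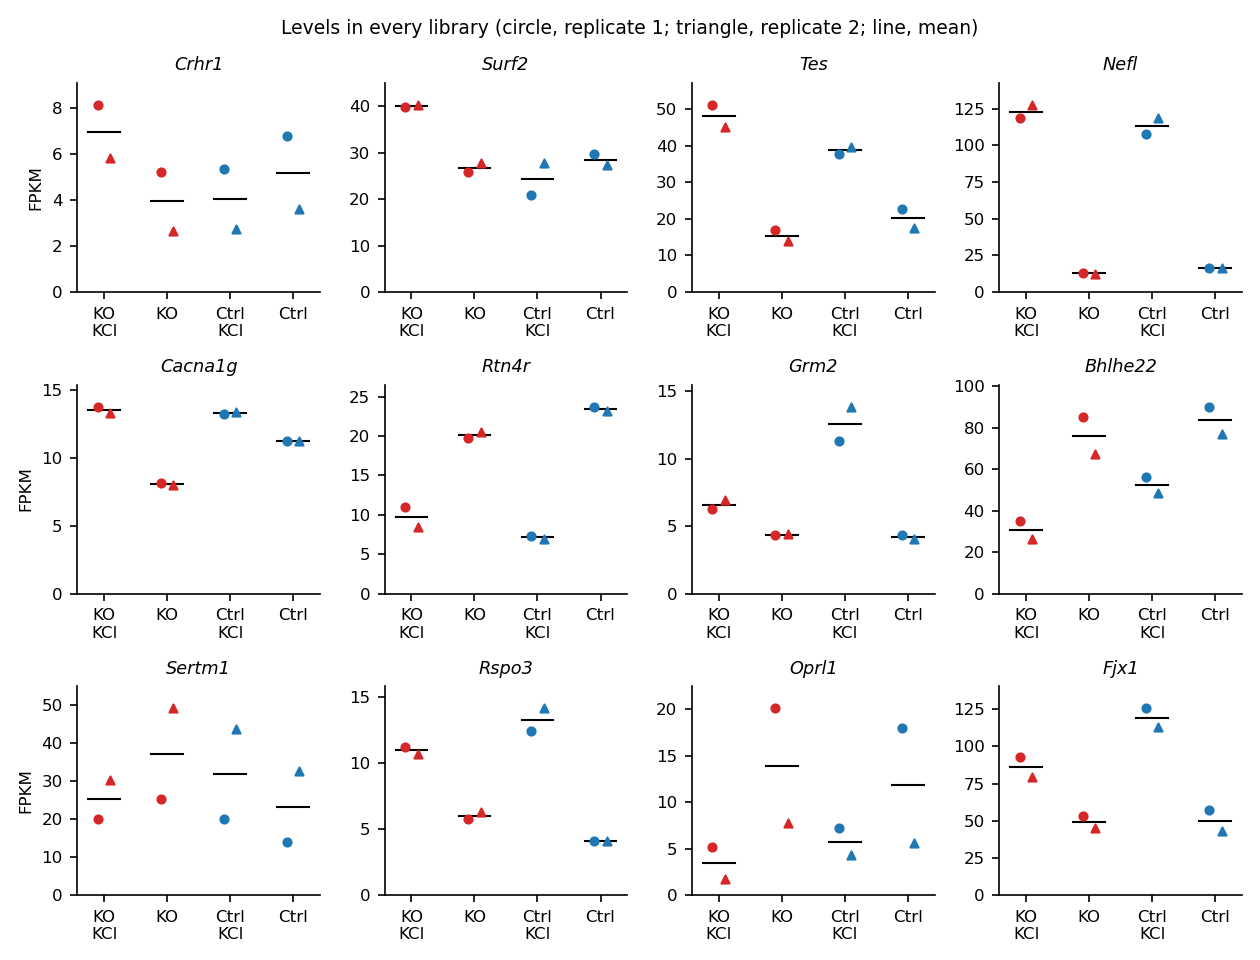
FPKM of 12 genes in each library, with Rem2 KO with KCl, Rem2 KO, Control with KCl and Control from left to right in each panel; circles are replicate 1, triangles replicate 2 and each line the mean of 2 libraries. Crhr1 is higher with KCl in Rem2 KO and lower in Control, and Grm2 with KCl is lower in Rem2 KO (6.24 and 6.91) than in Control (11.3 and 13.8).

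Grm2 and Bhlhe22 had the smallest p of the negative interactions, and neither passed after adjustment. Grm2, a metabotropic glutamate receptor that restrains transmitter release, had 6.24 and 6.91 FPKM in Rem2 KO with KCl and 4.35 and 4.40 in Rem2 KO, against 11.3 and 13.8 in Control with KCl and 4.36 and 4.02 in Control. Silenced libraries were level, and KCl raised Grm2 by 0.49 in Rem2 KO and by 1.38 in Control. The interaction was -0.76 in replicate 1 and -1.01 in replicate 2 (fit -0.89, unadjusted p 0.000250, adjusted p 0.999). Rem2 KO minus Control with KCl was -0.84 for Grm2 and passed that contrast's own test (limma adjusted p 0.0244). In all, 32 genes (0.251%) passed it, against 11 (0.0864%) in silenced cells. Bhlhe22, Pip4k2a, C2cd4b and Surf2, also named by their interactions, passed it too. That contrast is part of the interaction by which these genes were picked, so the passes are a description and add no support to the interaction.

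Bhlhe22, a helix-loop-helix transcription factor of cortical projection neurons, fell with KCl in both genotypes. It had 34.9 and 26.4 FPKM in Rem2 KO with KCl and 84.9 and 67.3 in Rem2 KO, against 56.3 and 48.5 in Control with KCl and 90.0 and 77.0 in Control. Its interaction was -0.63 (unadjusted p 0.000257 in limma). Rem2 KO minus Control with KCl, a part of that interaction, was -0.76 (limma adjusted p 0.0204). Rspo3, a secreted enhancer of Wnt signalling, had 11.2 and 10.7 FPKM in Rem2 KO with KCl and 5.73 and 6.24 in Rem2 KO, against 12.4 and 14.1 in Control with KCl and 4.10 and 4.09 in Control. The interaction of Rspo3 was -0.71, with Rem2 KO below Control with KCl and above it when silenced.

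Oprl1, the nociceptin receptor, had 5.15 and 1.67 FPKM in Rem2 KO with KCl and 20.1 and 7.70 in Rem2 KO, against 7.17 and 4.33 in Control with KCl and 18.0 and 5.56 in Control. The replicates differed in level by more than the genotypes did, and the interaction was -0.98 (95% interval -1.55 to -0.41). Fjx1, a secreted protein that limits dendrite growth, had 93.0 and 79.5 FPKM in Rem2 KO with KCl and 53.3 and 44.8 in Rem2 KO, against 126 and 113 in Control with KCl and 57.2 and 42.9 in Control. Its interaction was -0.45, with the silenced ranges overlapping and the KCl ranges apart. Also named on this side were BC028528 (-0.96), Cep85l (-0.75), Samd12 (-0.68), Mrpl2 (-0.53) and Pip4k2a (-0.52), and Mrpl2 overlaps Klc4. BC028528 ran from 0.367 FPKM in a Rem2 KO library with KCl to 7.04 in a Control library with KCl.

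Synaptogenic molecules, the subject of the study's title, did not move one way. Of 91 listed, 85 were tested and none passed; 8 (9.41%) had an unadjusted p under 0.05, against 3.70% of all genes. Positive were Nptx1 (0.54), the adhesion molecule Lrfn1 (0.32) and Lingo1 (0.29). Negative were Cbln2, a secreted synaptic organiser that bridges neurexin to its partners (-0.43), the teneurins Tenm1 (-0.39) and Tenm3 (-0.31), the protocadherin Pcdh17 (-0.32) and Flrt2, a latrophilin ligand (-0.29). Cbln2 had 7.64 and 7.66 FPKM in Rem2 KO with KCl and 11.2 and 11.8 in Rem2 KO, against 8.89 and 8.71 in Control with KCl and 8.70 and 10.3 in Control. In both replicates 26 of the 85 (30.6%) were positive and 25 (29.4%) negative, against 32.0% and 18.8% of all genes. The list's median interaction was 0.01, and it was -0.024 under quantile normalisation and -0.034 under TMM-type scaling.

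**Figure D5:**
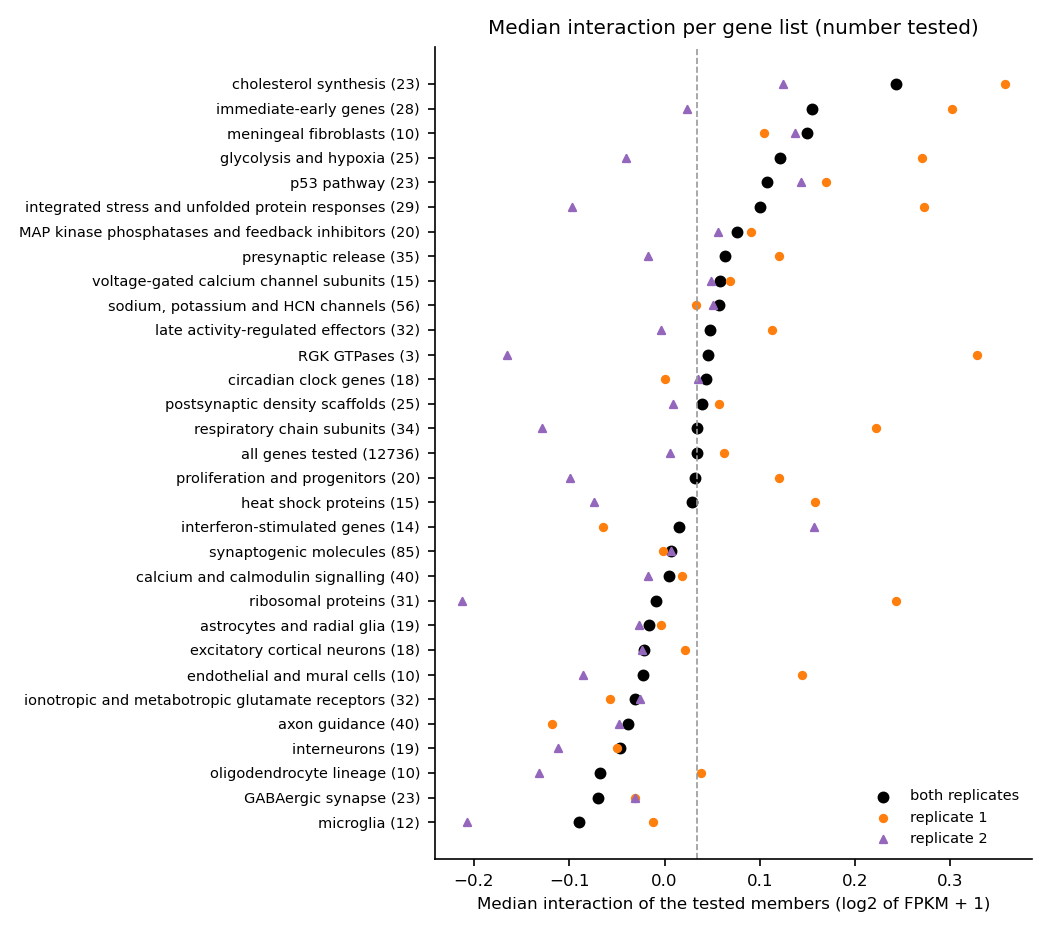
Median interaction of each gene list (log2(FPKM + 1)) in both replicates (black), replicate 1 (orange) and replicate 2 (purple), with the median over all tested genes as a dashed line. Cholesterol synthesis is positive in both (0.36 and 0.12), while ribosomal proteins are positive in replicate 1 (0.24) and negative in replicate 2 (-0.21).

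Channel, receptor and scaffold lists held a few genes of small p each and none that passed; 3.70% of all genes had an unadjusted p under 0.05. Of 15 voltage-gated calcium channel subunits tested, a family that holds the targets of RGK proteins, Cacna1g and the beta subunit Cacnb1 (0.37) were at an unadjusted p under 0.05. Of 56 sodium, potassium and HCN channels, 6 (10.7%) were: Kcnh1 (0.58), Hcn4 (0.44), Kcnj4 (0.44) and Kcnf1 (0.35) on the positive side, and Kcna3 (-0.56) and Kcnh7 (-0.35) on the negative. Among 23 genes of the GABAergic synapse there were the receptor subunits Gabrg1 (-0.57) and Gabrb2 (-0.37), among 25 postsynaptic scaffolds Baiap2 and Sipa1l1 (0.34), among 35 presynaptic genes Rims2 (-0.36), and among 32 glutamate receptors Grm2. Axon guidance genes were negative in both replicates for 18 of 40 (45.0%) and positive for 8 (20.0%), against 18.8% and 32.0% of all genes, with Sema3a (-0.47), Robo1 (-0.37) and Plxna2 (-0.35), or 7.50%, at an unadjusted p under 0.05.

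Genes of cholesterol synthesis were positive together, without passing the test. Of 23 tested, 17 (73.9%) were positive in both replicates and none was negative in both, against 32.0% and 18.8% of all genes. Their median interaction was 0.24, with 0.36 in replicate 1 and 0.12 in replicate 2, and it was 0.20 under both TMM-type scaling and quantile normalisation. Dhcr7, which makes cholesterol from its precursor, was alone at an unadjusted p under 0.05 (0.37). Hmgcs1, an early enzyme of the pathway, had 1003 and 796 FPKM in Rem2 KO with KCl and 461 and 461 in Rem2 KO, against 742 and 971 in Control with KCl and 447 and 661 in Control. The difference lay in the silenced cells for most members: 20 of 23 were lower in Rem2 KO than in Control there in both replicates, against 28.8% of all genes. The median of that difference was -0.24 in silenced cells and 0.01 with KCl. Hmgcs1 was not among the 20, since silenced Rem2 KO (461) lay above silenced Control (447) in replicate 1. The summed FPKM of the list was 1846 and 2726 in Rem2 KO with KCl, 1383 and 1408 in Rem2 KO, 2185 and 2232 in Control with KCl, and 1513 and 1830 in Control, lowest to highest in each group.

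Ribosomal protein genes moved by replicate instead. Their median interaction was 0.24 in replicate 1 and -0.21 in replicate 2, which gave -0.01 in the fit. Respiratory chain subunits gave 0.22 in replicate 1 and -0.13 in replicate 2, with 0.03 in the fit. MAP kinase phosphatases and feedback inhibitors are brakes on the pathway from calcium to transcription. Averaged over the genotypes, 18 of 20 tested rose with KCl and 2 fell, against 21.2% and 44.5% of all genes. The interaction was positive in both replicates for 12 of the 20 and negative for 2, against 32.0% and 18.8% of all genes. Dusp14 (0.39) and Dusp7 (0.38) were at an unadjusted p under 0.05, against 3.70% of all genes. KCl raised Dusp14 in both genotypes. Dusp7 fell, with a response of -0.31 in Rem2 KO and -0.68 in Control, so its positive interaction was a smaller fall.

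Markers of cell types were counted in the same way, beside the 18.8% of all genes that were negative and the 32.0% that were positive in both replicates. Interneuron markers were negative in both for 10 of 19 and positive for 0, with a median of -0.05. Microglial markers were negative for 5 of 12 and positive for 0, and those of astrocytes and radial glia negative for 7 of 19 and positive for 2. Fibroblast markers were negative for 1 of 10 and positive for 7, with a median of 0.15. Excitatory neuron markers were negative for 5 of 18 and positive for 4, and those of proliferation and progenitors negative for 6 of 20 and positive for 6. The oligodendrocyte and the endothelial and mural lists each had 3 of 10 negative and 1 positive. The summed FPKM of the interneuron list was 1525 and 1958 in Rem2 KO with KCl, 574 and 676 in Rem2 KO, 1631 and 1933 in Control with KCl, and 630 and 532 in Control, so these sums overlapped between genotypes with KCl. That of the fibroblast list was 127 and 307 in Rem2 KO with KCl, 110 and 312 in Rem2 KO, 106 and 264 in Control with KCl, and 121 and 275 in Control. Most of each fibroblast sum came from Igfbp2. Most of each interneuron sum with KCl came from Sst, at 904 and 1229 FPKM in Rem2 KO and 998 and 1269 in Control. KCl raised Sst by 2.44 in Rem2 KO and by 2.65 in Control. The part of cell composition in the interactions above was not tested.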

How the data were processed

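RNA was measured in 8 TruSeq libraries made from 500 ng of total RNA. The authors deposited FPKM per RefSeq transcript, per the file headers; TopHat, Cufflinks and mm10 are named in the submitters' processing notes, without versions. Cufflinks divides reads among transcripts, so whole reads were not recovered and depth is unknown.

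Transcript FPKM were summed per gene through RefSeq names (34205 of 34353 accessions matched); 306 genes with repeated or missing entries were left out. Of 13143 genes with at least 1 FPKM in 2 libraries, 407 with a 0 in any library were dropped, and 12736 were tested on log2(FPKM + 1), which understates changes of low genes. limma 3.58.1 (R 4.3.3) was fitted to 4 group means and the replicate number, with a variance trend and Benjamini-Hochberg adjustment. Libraries with the same number deviated together from their group means (correlations 0.844 to 0.911 over 6 pairs of groups), so the numbers pair the libraries. The steps were tested on simulated data.

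The interaction, the gene lists and the rules were chosen with earlier results of these data known. Named genes were Rem2, Gem and Rrad; the 10 smallest p per direction with 1 sign in both replicates and a group mean of at least 2 FPKM, without predicted and small RNA genes; the 5 largest per direction by the smaller replicate value; the 10 largest KCl rises and 5 largest falls; the 2 smallest p of each list; and a fixed set of activity-regulated genes, from which the text gives those that its comparisons turn on. Alternatives covered pseudocounts, filters, scaling, the block, the variance model, transcripts and leaving out each library.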

Additional observations from a re-analysis of the deposited data

How the results depend on the processing

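The interaction passed for 9 genes when genes at 0 in some libraries were kept. It passed for 6 when limma was run on the 2 within-replicate values alone (Crhr1, Sertm1, Gm38671, Mir8091, Snora28 and Snora81), with 1 residual degree of freedom. With each library left out in turn, where the lone sample of a group is assumed to vary like the others, it passed for 0 to 1 genes; the gene was Snora17, without the silenced Rem2 KO library of replicate 1. Under every other alternative run it passed for 0. The averaged KCl response passed for 4469 genes with no replicate block, where the pairing of the libraries is not used, against 8368 with it, and for 7150 to 8312 with a library left out. The ratio of KCl rises in replicate 1, 1.03, was 0.998 under quantile normalisation, 0.997 under TMM-type scaling and 0.977 for responses of at least 2. The ratio of falls in replicate 1 was 0.978 with a pseudocount of 0.1, 1.01 under quantile normalisation, 1.03 under upper quartile scaling, 1.04 under TMM-type scaling and 0.971 for responses of at least 2, a set of 2 genes; in replicate 2 it was 0.930, 0.937 and 0.934 under quantile, upper quartile and TMM-type scaling and 0.00847 for responses of at least 2, a set of 5 genes. The median interaction of synaptogenic molecules, 0.01, was -0.024 under quantile normalisation and -0.034 under TMM-type scaling. Of 2083 interaction values for 105 named genes, 2020 kept their direction and side of the threshold, 2 passed (Crhr1 and Sertm1) and 61, in 20 genes, changed sign. Rem2's interaction, -0.02, was 0.17 with a pseudocount of 0.1, 0.072 with 0.5 and -0.50 to 0.47 with a library left out. The other sign changes with a library left out, given as the range over the libraries, were in AI854703 (-0.15 to 0.080), Arc (-0.42 to 0.048), Cbln1 (-0.34 to 0.20), Crem (-0.23 to 0.16), Egr1 (-0.066 to 0.77), Fosl2 (-0.14 to 0.41), Gad1 (-0.23 to 0.14), Gem (-0.035 to 0.46), Homer1 (-0.25 to 0.056), Nptx2 (-0.15 to 0.57), Ntsr1 (-0.11 to 0.50), Pcsk1 (-0.15 to 0.077), Pomk (-0.18 to 0.14), Rrad (-0.12 to 0.21), Scg2 (-0.17 to 0.41), Sla (-0.16 to 0.17), Sst (-0.69 to 0.28), Txnip (-0.46 to 0.11) and Vgf (-0.47 to 0.25). Pcsk1 was 0.021 with a pseudocount of 0.1, and the interaction of Sla was -0.00147 with that pseudocount, -0.021 under upper quartile, -0.034 under TMM-type and -0.024 under quantile scaling. The cause of these shifts was not tested. The absence of counts and the 2 libraries per group limit precision. The unadjusted 95% interval of the median gene reached about 0.32 log2 units to either side of its estimate. Larger estimates also failed the adjusted test, such as 1.02 for Crhr1 and -0.89 for Grm2, so 0.32 is not the limit of that test.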

Other observations

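The test left out 407 genes for a 0 in any library. Given here as values are those whose interaction passed when such genes were kept, besides Surf1 above. They were picked by that result and do not stand for all 407. Igfbp7, a secreted binding protein of insulin-like growth factors, had 17.0 and 17.8 FPKM in Rem2 KO with KCl, was listed at 0 in both silenced Rem2 KO libraries, and had 21.3 and 17.8 in Control with KCl and 20.0 and 19.2 in Control. Dnlz, a mitochondrial chaperone partner, had 9.77 and 8.65 FPKM in silenced Rem2 KO and was listed at 0 in the other 6 libraries. Agbl5, a deglutamylase of tubulin, had 3.14 and 3.10 FPKM in Rem2 KO with KCl and 8.02 and 8.86 in Rem2 KO, was listed at 0 in both Control libraries with KCl, and had 8.47 and 10.6 in Control. Mir1249, a microRNA gene, had 24.2 and 11.5 FPKM in Rem2 KO with KCl, 49.8 and 46.6 in Rem2 KO and 22.5 and 19.1 in Control with KCl, and was listed at 0 in both silenced Control libraries. The microRNA genes Mir1898, Mir674, Mir7063 and Mir93, were listed at 0 in 6 libraries and had 12.7 to 41.9 FPKM in the 2 Control libraries with KCl. In each of these genes both libraries of a group were at 0 together, and whether such a 0 is a failed estimate was not tested.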
